A study of Rattus norvegicus with 12 samples.

Results

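The rat major histocompatibility complex, RT1, and the genes that load its molecules with peptide were followed in RNA from whole rat lung. The genes were those whose symbol starts with RT1- together with 12 named antigen presentation genes, and a gene was kept where at least 10 counts were found in 4 or more of the 12 libraries. Of 32883 genes in the deposited count table, 43 carried such a name and 38 were kept. These were 17 class I heavy chain genes, the class I light chain gene B2m, 7 genes that supply peptide to class I, 5 class II chain genes, 6 genes of class II chaperones and processing, and 2 regulators. In RefSeq, 31 of the 38 lie on rat chromosome 20, where the RT1 complex is. The rule used counts over all libraries and no difference between groups. RT1-S2, with 10 counts in 2 libraries, lay just outside it, and RT1-Ha, RT1-M5, RT1-M4 and RT1-M6-2 reached 10 counts in 0 libraries. Just inside it lay RT1-DMa with 5 such libraries, Tap2 with 6, RT1-Db2 with 7, RT1-DMb with 8 and RT1-M2 with 10.

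The study set 3 groups of 4 libraries side by side. MCT-Fer-1 rats received monocrotaline, a plant alkaloid that injures lung vessels and models pulmonary hypertension, and ferrostatin-1, a small molecule inhibitor of ferroptosis. MCT-Vehicle rats received monocrotaline and vehicle. Control samples carry the treatment label Control, and neither monocrotaline nor ferrostatin-1 is stated for them. All carry the genotype label WT and the time label 25 days, without the day from which the time counts, and the dosing with ferrostatin-1 or vehicle lasted 10 days. No vehicle is stated for Control, so in comparisons with Control the effects of monocrotaline and of vehicle dosing cannot be told apart. Strain, age, sex and pooling of rats were not given in the sources used here. Nor is it stated that each library came from its own rat: the p-values below measure the spread between libraries, which may be technical.

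Library totals were 11601929 to 70627239 counts in MCT-Fer-1, 13654695 to 24016262 in MCT-Vehicle and 16640022 to 18229992 in Control. Levels are given in CPM, counts relative to TMM-scaled library size, and 3 counts, taken as the detection floor, correspond to 0.0419 to 0.258 CPM. The floor covers counting error only. The 6 matched lung tissue markers, surfactant and club cell genes among them, were detected in every group and summed to 23674 to 34027 CPM in MCT-Fer-1, 22470.1 to 29679 CPM in MCT-Vehicle and 32499 to 34470.5 CPM in Control. MCT-Vehicle 2 and Control 4 stood apart in heart muscle markers. The sum of the 7 matched heart muscle markers was 378 CPM in MCT-Vehicle 2 and 234 CPM in Control 4, and none of the remaining 10 libraries lay outside 16.5 to 74.4 CPM. Counts of called genes are therefore also given without both libraries.

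Class I molecules pair a polymorphic heavy chain with beta-2 microglobulin and show peptides from the cytosol to CD8 T cells. The immunoproteasome cuts these peptides, the TAP transporter carries them into the endoplasmic reticulum, and tapasin and the trimming peptidase ERAP1 act on their loading. Class II molecules are pairs of an alpha and a beta chain, held by the invariant chain CD74 until cathepsin S and other proteases free the groove, and DM then exchanges its content for peptide. Macrophages, dendritic cells and B cells carry class II constitutively or after stimulation, and in the lung alveolar type 2 cells do so too. CIITA switches on class II genes, and NLRC5 acts on class I genes. RT1 genes lie in clusters of similar copies that differ between rat strains, so reads of 1 copy can be assigned to another and the values of single RT1 genes are uncertain.

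Class II genes carry an X box and a Y box before the start, on which CIITA acts, and the proximal sequences of genes described below are shown for that reason. They are from RefSeq on the GRCr8 build, which is not known to be the build behind the counts. Each is read 5′ to 3′ on the strand of the gene, with the X box, spelled AGCAACNGA, and the Y box core ATTGG or its reverse complement CCAAT in capitals. N is any base, and both strands were searched.
RT1-Da, alpha chain of the D molecule, chr20:4515324-4515378, plus strand: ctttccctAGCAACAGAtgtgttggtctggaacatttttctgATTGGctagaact
RT1-Db1, beta chain of the D molecule, chr20:4560205-4560283, minus strand: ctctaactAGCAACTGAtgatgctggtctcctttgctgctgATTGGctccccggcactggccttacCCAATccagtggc
RT1-Db2, a further beta chain gene, chr20:4541700-4541752, minus strand: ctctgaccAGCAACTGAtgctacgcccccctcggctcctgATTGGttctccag
RT1-DOb, beta chain of DO, chr20:4627568-4627645, minus strand: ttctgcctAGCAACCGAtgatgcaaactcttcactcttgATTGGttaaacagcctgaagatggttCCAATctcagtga
This X box spelling, chosen after several were tried, was present in 446 of 33469 rat promoter windows of 300 bases, or 1.33%. Of the 38 genes, 32 had a promoter window and 4 of these held it, the genes shown. It was in 0 of 15 windows of class I heavy chain genes, which does not show that these lack an X box of another spelling. ATTGG is short, and 37.5% of all windows and 25 of the 32 held it. Among the 25 were B2m and 12 of the 15 class I heavy chain genes. A match describes letters and is no evidence of binding.

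Further elements were searched for in the same windows. A kappa B element, GGGATTCCC, was found in 4 of the 32 windows and in 0.365% of all windows, and an interferon regulatory factor (IRF) element, GAAANNGAA, in 9 of the 32 and in 9.71% of all. The 4 with the kappa B element were all class I heavy chain genes, RT1-A1, RT1-A2, RT1-CE4 and RT1-CE10. The IRF element was in 5 of 6 windows of genes that supply peptide to class I, in B2m, in 2 class I heavy chain genes and in Ctss. It was in 0 of 5 windows of class II chain genes. Examples of both are shown with the element in capitals, which in Tap1 lies on the opposite strand, so that its reverse complement is read.
RT1-A1, a classical class I heavy chain, chr20:4907059-4907117, plus strand: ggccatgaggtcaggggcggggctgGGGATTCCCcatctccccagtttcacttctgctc
RT1-A2, its neighbouring copy, chr20:4872673-4872731, plus strand: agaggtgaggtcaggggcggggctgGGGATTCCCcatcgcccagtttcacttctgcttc
Tap1, a subunit of the TAP transporter, chr20:4668635-4668683, minus strand: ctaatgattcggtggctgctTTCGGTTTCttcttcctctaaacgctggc
B2m, the class I light chain, chr3:129549160-129549208, plus strand: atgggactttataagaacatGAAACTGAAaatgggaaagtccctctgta

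The first comparison asked which of these genes differed between MCT-Vehicle and Control lungs. Genes of the class II pathway made up most of the genes that rose: the chain genes RT1-Da, RT1-Db1 and RT1-Ba, the invariant chain gene Cd74, the protease gene Ctss and the regulator gene Ciita. They rose by 0.39 to 1.15 on the log2 scale. The other genes that rose were the class I genes RT1-M2 and RT1-M6-1. Of the 38 genes, 8 rose and 0 fell in MCT-Vehicle (edgeR quasi-likelihood test, Benjamini-Hochberg adjusted p below 0.05 over 15257 genes), where 10.3% of all genes tested were called higher and 8.28% lower, 18.6% together. By role, 3 of 5 class II chain genes, 2 of 6 class II chaperone and processing genes, 1 of 2 regulators and 2 of 17 class I heavy chain genes rose. None of the 7 peptide supply genes did, nor B2m. The 4 values of MCT-Vehicle lay above all 4 of Control in 10 of the 38 genes, where 11.4% of all genes did so, and below in 0, where 10% did so. The median log2 fold change over the 38 genes was 0.11, against 0.02 over all genes tested. It was 0.56 over class II chains, 0.45 over class II chaperones and processing, 0.08 over peptide supply and -0.09 over class I heavy chains. Without MCT-Vehicle 2 and Control 4, 7 of the 38 rose and 0 fell, and calls over the whole table went from 2843 to 1675.

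**Figure D1:**
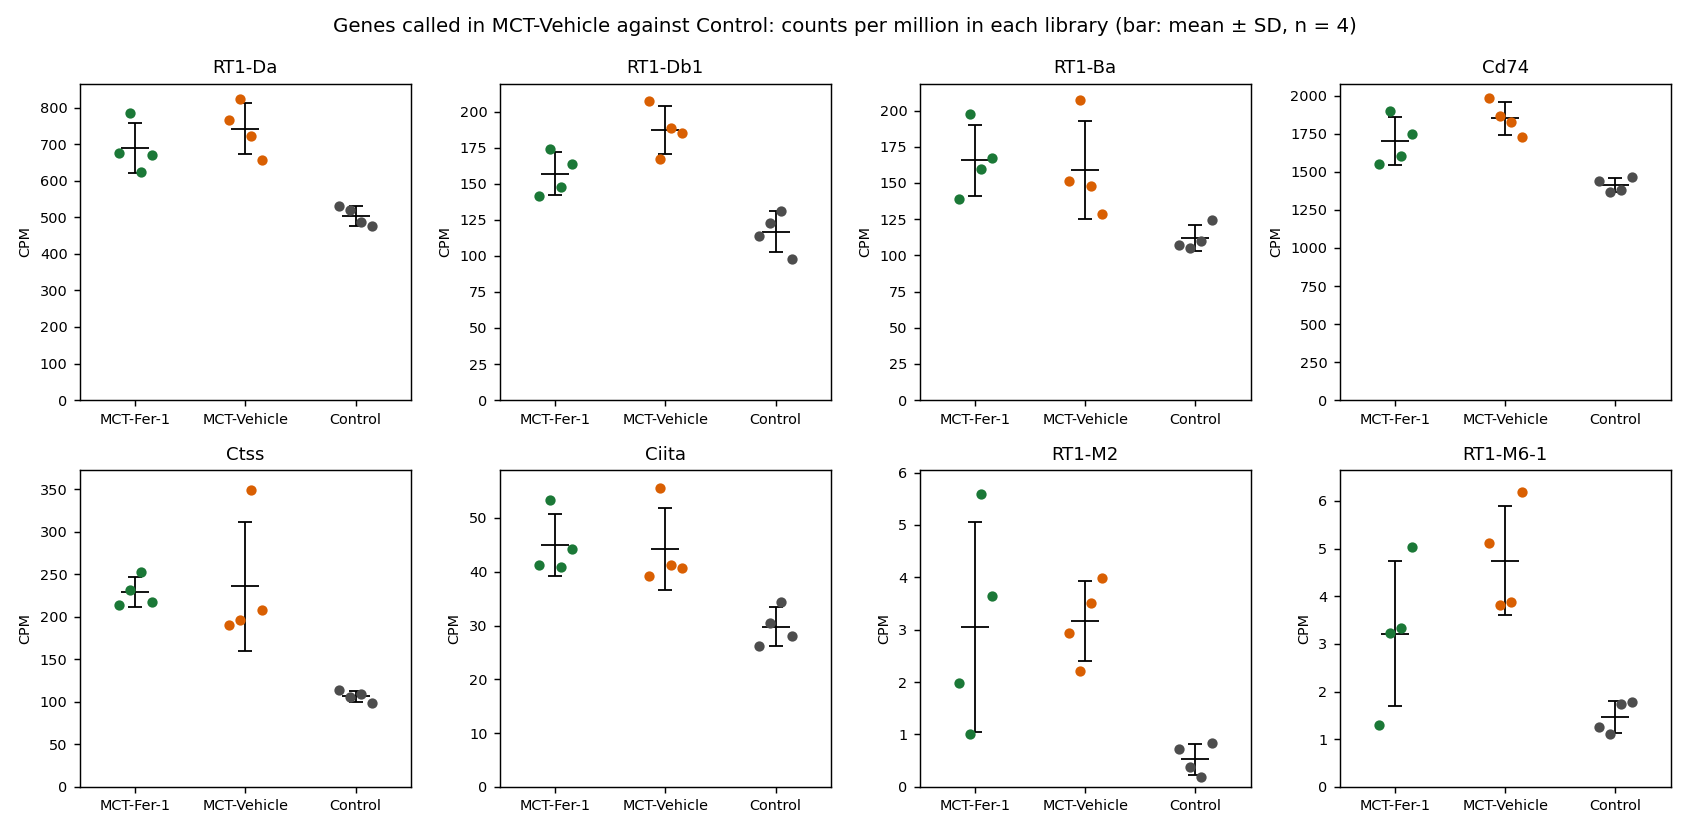
CPM (linear axes from 0) of the 8 genes called higher in MCT-Vehicle than in Control, 1 panel a gene, in the 4 libraries each of MCT-Fer-1, MCT-Vehicle and Control; points are libraries, and the bars give group means with SD (n = 4). In MCT-Vehicle each of the 8 genes has its 4 libraries above the 4 of Control, for example 657 to 823 CPM against 475 to 531 CPM for RT1-Da.

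The identifiers of the 8 genes in the table are ENSRNOG00000032844 (RT1-Da), ENSRNOG00000033215 (RT1-Db1), ENSRNOG00000000451 (RT1-Ba), ENSRNOG00000018735 (Cd74), ENSRNOG00000021157 (Ctss), ENSRNOG00000002659 (Ciita), ENSRNOG00000049590 (RT1-M2) and ENSRNOG00000022107 (RT1-M6-1). Among the class II chains, both chains of the D molecule rose. RT1-Da had 677, 786, 623 and 670.5 CPM in MCT-Fer-1, 767, 823, 722 and 657 CPM in MCT-Vehicle, and 531, 521, 488 and 475 CPM in Control. Every monocrotaline library lay above every Control library, and the 2 monocrotaline groups overlapped. Its log2 fold change in MCT-Vehicle against Control was 0.56 ± 0.09 (SE; edgeR adjusted p = 0.00113). RT1-Db1, which encodes its beta chain partner, had 141, 174, 148 and 164 CPM in MCT-Fer-1, 208, 167, 188 and 185 CPM in MCT-Vehicle, and 114, 123, 131 and 98.1 CPM in Control. MCT-Vehicle and Control did not overlap, and the log2 fold change was 0.68 ± 0.10 (edgeR adjusted p = 6.78e-04). The third called chain was RT1-Ba, the alpha chain of the B molecule, with 139, 198, 159 and 167 CPM in MCT-Fer-1, 152, 207, 148 and 129 CPM in MCT-Vehicle, and 107, 105, 110.2 and 125 CPM in Control. Its lowest MCT-Vehicle library lay just above its highest Control library, and its highest values were in MCT-Vehicle 2 and MCT-Fer-1 2. The log2 fold change was 0.51 ± 0.14 (edgeR adjusted p = 0.0230), and the call was lost without MCT-Vehicle 2 (0.35, adjusted p = 0.050) and without Control 1, 2 or 3 (adjusted p up to 0.0652).

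The remaining class II chain genes were not called. RT1-Bb, the beta chain of the B molecule, had 100, 249, 256 and 281 CPM in MCT-Fer-1, 109.6, 295, 114 and 105 CPM in MCT-Vehicle, and 85.6, 82.8, 77.5 and 179 CPM in Control. A low set of 7 libraries, 77.5 to 114 CPM, and a high set of 5, 179 to 295 CPM, cut across the groups, and the log2 fold change was 0.56 ± 0.44 (edgeR adjusted p = 0.415). RT1-Db2, a second beta chain gene of the D region, stood near the floor, with 0.517, 1.89, 0.378 and 0.741 CPM in MCT-Fer-1, 0.555, 2.27, 0.149 and 0.315 CPM in MCT-Vehicle, and 0.934, 0.221, 0.783 and 0.177 CPM in Control. The groups overlapped (log2 fold change 0.68 ± 0.81, edgeR adjusted p = 0.605). Summed over the 5 class II chain genes, levels were 1234 ± 149 CPM in MCT-Fer-1, 1245 ± 179 CPM in MCT-Vehicle and 839 ± 28.6 CPM in Control (SD, n = 4 each). The lowest monocrotaline sum, 1058 CPM in MCT-Fer-1 1, lay above the highest Control sum, 877 CPM.

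Of the chaperones and processing genes, Ctss and Cd74 rose. Ctss, which encodes the protease cathepsin S that degrades the invariant chain, had 214, 231, 253 and 217 CPM in MCT-Fer-1, 189.9, 196, 349 and 208 CPM in MCT-Vehicle, and 113, 105, 109 and 98.1 CPM in Control. Control libraries lay within 98.1 to 113 CPM, all others were at 190 CPM or above, and MCT-Vehicle 3 was the highest. Its log2 fold change of 1.15 ± 0.17 (edgeR adjusted p = 7.01e-04) was the largest among the class II genes called. Cd74, the invariant chain, had 1553, 1899.7, 1603 and 1752 CPM in MCT-Fer-1, 1989, 1869, 1828 and 1727 CPM in MCT-Vehicle, and 1439, 1367, 1380.0 and 1464 CPM in Control. MCT-Vehicle lay above Control in all 4 libraries by a small margin (log2 fold change 0.39 ± 0.08, edgeR adjusted p = 0.00486).

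DM and DO were not called. RT1-DOa, the alpha chain of DO, which restrains DM, had 7.49, 11.5, 7.22 and 9.94 CPM in MCT-Fer-1, 10.0, 12.9, 9.61 and 9.03 CPM in MCT-Vehicle, and 6.92, 6.97, 7.40 and 8.46 CPM in Control (log2 fold change 0.48 ± 0.17, edgeR adjusted p = 0.0680). RT1-DOb, its beta chain, had 12.4, 19.9, 12.6 and 13.8 CPM in MCT-Fer-1, 12.2, 20.4, 13.8 and 13.1 CPM in MCT-Vehicle, and 11.3, 10.1, 10.1 and 10.8 CPM in Control (log2 fold change 0.50 ± 0.18, edgeR adjusted p = 0.0804). For both DO chains the 4 MCT-Vehicle values lay above the 4 Control values, the 2 highest libraries were MCT-Vehicle 2 and MCT-Fer-1 2, and the threshold was missed. DESeq2 called RT1-DOa (adjusted p = 0.0464) and thus 9 of the 38 higher and 0 lower, where it called 11% of its genes higher and 9.51% lower. RT1-DMa stood at 0.177 to 1.04 CPM over all 12 libraries. RT1-DMb, the beta chain of DM, had 0.258, 0.83, 0.756 and 27.1 CPM in MCT-Fer-1, 0.384, 0.317, 25.5 and 18.0 CPM in MCT-Vehicle, and 12.3, 0.664, 0.482 and 20.1 CPM in Control. It was thus below 1 CPM in 7 libraries and at 12.3 CPM or above in the other 5, which came from all groups (log2 fold change 0.37 ± 1.67, edgeR adjusted p = 0.904).

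Ciita, the regulator of class II genes, rose. It had 41.3, 53.3, 40.9 and 44.2 CPM in MCT-Fer-1, 39.2, 55.7, 41.3 and 40.7 CPM in MCT-Vehicle, and 26.1, 30.5, 34.4 and 28.1 CPM in Control. The groups MCT-Vehicle and Control did not overlap, and MCT-Vehicle 2 and MCT-Fer-1 2 were again highest (log2 fold change 0.57 ± 0.13, edgeR adjusted p = 0.00912). Without MCT-Vehicle 2 and Control 4 together the value was 0.41 and the call was lost (adjusted p = 0.0557). Nlrc5, its counterpart for class I, had 29.9, 22.5, 25.5 and 21.4 CPM in MCT-Fer-1, 23.4, 30.1, 24.9 and 28.3 CPM in MCT-Vehicle, and 23.6, 24.2, 27.5 and 21.2 CPM in Control. These groups overlapped (log2 fold change 0.15 ± 0.12, edgeR adjusted p = 0.443).

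**Figure D2:**
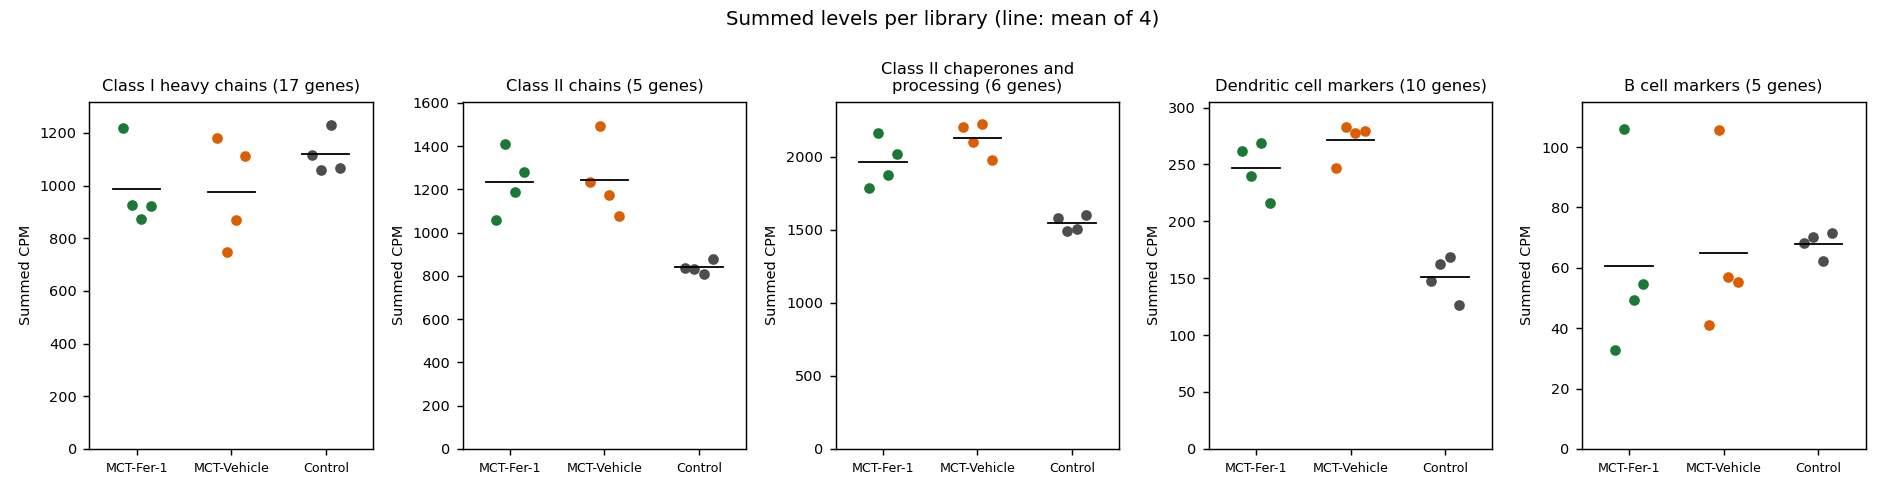
Summed CPM per library (linear axes from 0) of the class I heavy chain, class II chain, and class II chaperone and processing genes and of dendritic cell and B cell markers, in MCT-Fer-1, MCT-Vehicle and Control; points are libraries and lines are group means. Class II chain sums are 1058 to 1409 CPM in MCT-Fer-1, 1077 to 1495 CPM in MCT-Vehicle and 808 to 877 CPM in Control, and dendritic cell marker sums are likewise above Control in all 8 monocrotaline libraries. In MCT-Vehicle most of the dendritic cell marker sum comes from Itgax and Clec10a.

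Markers of dendritic cells and macrophages, which carry class II, were higher on balance in MCT-Vehicle, while B cell and alveolar type 2 markers had 0 calls. In bulk RNA a change in the number of such cells and a change in RNA per cell cannot be told apart. Over all genes tested, 10.3% were called higher in MCT-Vehicle than in Control and 8.28% lower. Of 9 dendritic cell markers tested, 4 rose in MCT-Vehicle and 0 fell, and the list of 10 summed to 216 to 269 CPM in MCT-Fer-1, 247 to 283 CPM in MCT-Vehicle and 127 to 169 CPM in Control. Most of the MCT-Vehicle sum came from Itgax and Clec10a, with means of 98.7 and 83.0 CPM. The 4 that rose were Xcr1 (2.03 ± 0.20 on the log2 scale) and Clec9a (1.87 ± 0.17), receptors of cross-presenting dendritic cells, with Clec10a (1.46 ± 0.22) and the integrin gene Itgax (0.93 ± 0.26), edgeR adjusted p from 4.60e-05 to 0.0303. Zbtb46, a transcription factor gene of conventional dendritic cells, had -0.50 ± 0.19 (edgeR adjusted p = 0.0850), with the 4 MCT-Vehicle values below the 4 Control values, and the chemokine receptor gene Ccr7 had -0.16 ± 0.26 (edgeR adjusted p = 0.721). Of 10 macrophage markers, 8 rose and 0 fell, and the list summed to 22639.5 to 29465 CPM in MCT-Fer-1, 22149.8 to 35800.5 CPM in MCT-Vehicle and 21915 to 24351 CPM in Control. Most of this sum was Lyz2, with a mean of 25610 CPM in MCT-Vehicle, which was not called (0.21 ± 0.14, edgeR adjusted p = 0.340). Csf1r was not called either (0.06 ± 0.12, edgeR adjusted p = 0.765). Of 5 B cell markers 0 were called, and the list summed to 32.9 to 106 CPM in MCT-Fer-1, 41.0 to 106 CPM in MCT-Vehicle and 62.3 to 71.6 CPM in Control. The 2 highest B cell sums, 106 CPM each, were in MCT-Fer-1 2 and MCT-Vehicle 2, the libraries highest in RT1-Ba, RT1-Db2, RT1-DOa, RT1-DOb and Ciita. A large part of the MCT-Vehicle 2 sum was 1 gene, Cr2, at 46.8 CPM. Cr2 had 22.6 CPM in MCT-Fer-1 2 and 7.10 to 11.2 CPM in Control, so the high sum of MCT-Vehicle 2 rests largely on this gene. The alveolar type 2 list had 0 calls among 5 markers and summed to 15657 to 27977 CPM in MCT-Fer-1, 17225 to 26958 CPM in MCT-Vehicle and 25445 to 27635 CPM in Control. Xcr1 and Clec9a were detected in Control, and the macrophage scavenger receptor gene Marco was at 0 there. In MCT-Vehicle Marco stood at 0.157 to 1.22 CPM, near the floor. The part of these cells in the class II results was not tested.

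The class I heavy chains showed no common direction. Of 17 genes, 2 rose, 0 fell, and 6 had a positive and 11 a negative log2 fold change. RT1-M2, an RT1-M region class I gene, had 1.98, 1.01, 5.59 and 3.63 CPM in MCT-Fer-1, 2.95, 2.22, 3.5 and 3.99 CPM in MCT-Vehicle, and 0.714, 0.387, 0.181 and 0.828 CPM in Control. Its Control values lay close to the floor, so the size of the difference is uncertain, and no library of MCT-Vehicle overlapped them (log2 fold change 2.57 ± 0.54, edgeR adjusted p = 0.00579). RT1-M6-1, of the same region, had 1.29, 3.22, 3.33 and 5.03 CPM in MCT-Fer-1, 5.12, 3.81, 3.88 and 6.19 CPM in MCT-Vehicle, and 1.26, 1.11, 1.75 and 1.77 CPM in Control. All MCT-Vehicle libraries lay above all Control libraries (log2 fold change 1.69 ± 0.35, edgeR adjusted p = 0.00527). No library exceeded 6.19 CPM for either gene.

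The classical genes RT1-A1 and RT1-A2 were not called. RT1-A1 had 39.1 to 55.9 CPM in MCT-Fer-1, 37.4 to 78.7 CPM in MCT-Vehicle and 51.4 to 69.2 CPM in Control (log2 fold change -0.09 ± 0.20 in MCT-Vehicle against Control, edgeR adjusted p = 0.798). RT1-A2 had 79.0 to 233 CPM in MCT-Fer-1, 110.2 to 177 CPM in MCT-Vehicle and 125 to 237 CPM in Control (log2 fold change -0.31 ± 0.29, edgeR adjusted p = 0.506). For both, the ranges overlapped. RT1-CE1 had the largest negative difference of the 38 genes, -0.77 ± 0.35 (edgeR adjusted p = 0.153). RT1-M3-1, related to the mouse gene whose product presents formylated peptides, had 34.0 to 36 CPM in MCT-Fer-1, 36.1 to 42.1 CPM in MCT-Vehicle and 30.8 to 41.5 CPM in Control (log2 fold change 0.04 ± 0.09, edgeR adjusted p = 0.815). The 17 heavy chain genes summed to 985 ± 157 CPM in MCT-Fer-1, 977 ± 203 CPM in MCT-Vehicle and 1119 ± 78.8 CPM in Control (SD, n = 4 each), and these ranges overlapped.

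The light chain and the peptide supply genes were not called. B2m had 2982, 2903, 2869 and 2586 CPM in MCT-Fer-1, 3178, 2532, 2667 and 2608 CPM in MCT-Vehicle, and 2787, 2660.3, 2832 and 2400.4 CPM in Control. The groups overlapped, and the log2 fold change was 0.04 ± 0.09 (edgeR adjusted p = 0.798). Tap1 had 84.5, 83.9, 89.4 and 75.8 CPM in MCT-Fer-1, 91.0, 84.2, 75.0 and 93.9 CPM in MCT-Vehicle, and 71.1, 70.3, 81.5 and 71.5 CPM in Control. It came nearest to a call among the peptide supply genes (log2 fold change 0.23 ± 0.08, edgeR adjusted p = 0.0724) and was called without MCT-Vehicle 3 (0.29, adjusted p = 0.0244). Psmb9, an immunoproteasome subunit, had 56.8, 54.3, 55.4 and 52.8 CPM in MCT-Fer-1, 63.9, 57.4, 56.6 and 63.0 CPM in MCT-Vehicle, and 63.0, 59.4, 69.9 and 52.9 CPM in Control (log2 fold change -0.02 ± 0.08, edgeR adjusted p = 0.868). Psmb8, another such subunit, had 48.7, 31.9, 32.6 and 34.5 CPM in MCT-Fer-1, 46.6, 32.9, 55.7 and 53.0 CPM in MCT-Vehicle, and 48.8, 59.3, 49.2 and 29.3 CPM in Control (log2 fold change 0.01 ± 0.22, edgeR adjusted p = 0.982). Groups overlapped for both subunits. Psmb10, the remaining catalytic subunit, had 61.7, 65.9, 61.7 and 56.4 CPM in MCT-Fer-1, 75.6, 63.4, 62.2 and 70.3 CPM in MCT-Vehicle, and 59.0, 63.8, 64.4 and 57.0 CPM in Control (log2 fold change 0.15 ± 0.08, edgeR adjusted p = 0.186). Tapasin (Tapbp) at 0.14 ± 0.08 and Erap1 at 0.01 ± 0.09 on the log2 scale were not called either (edgeR adjusted p = 0.232 and 0.945).

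**Figure D3:**
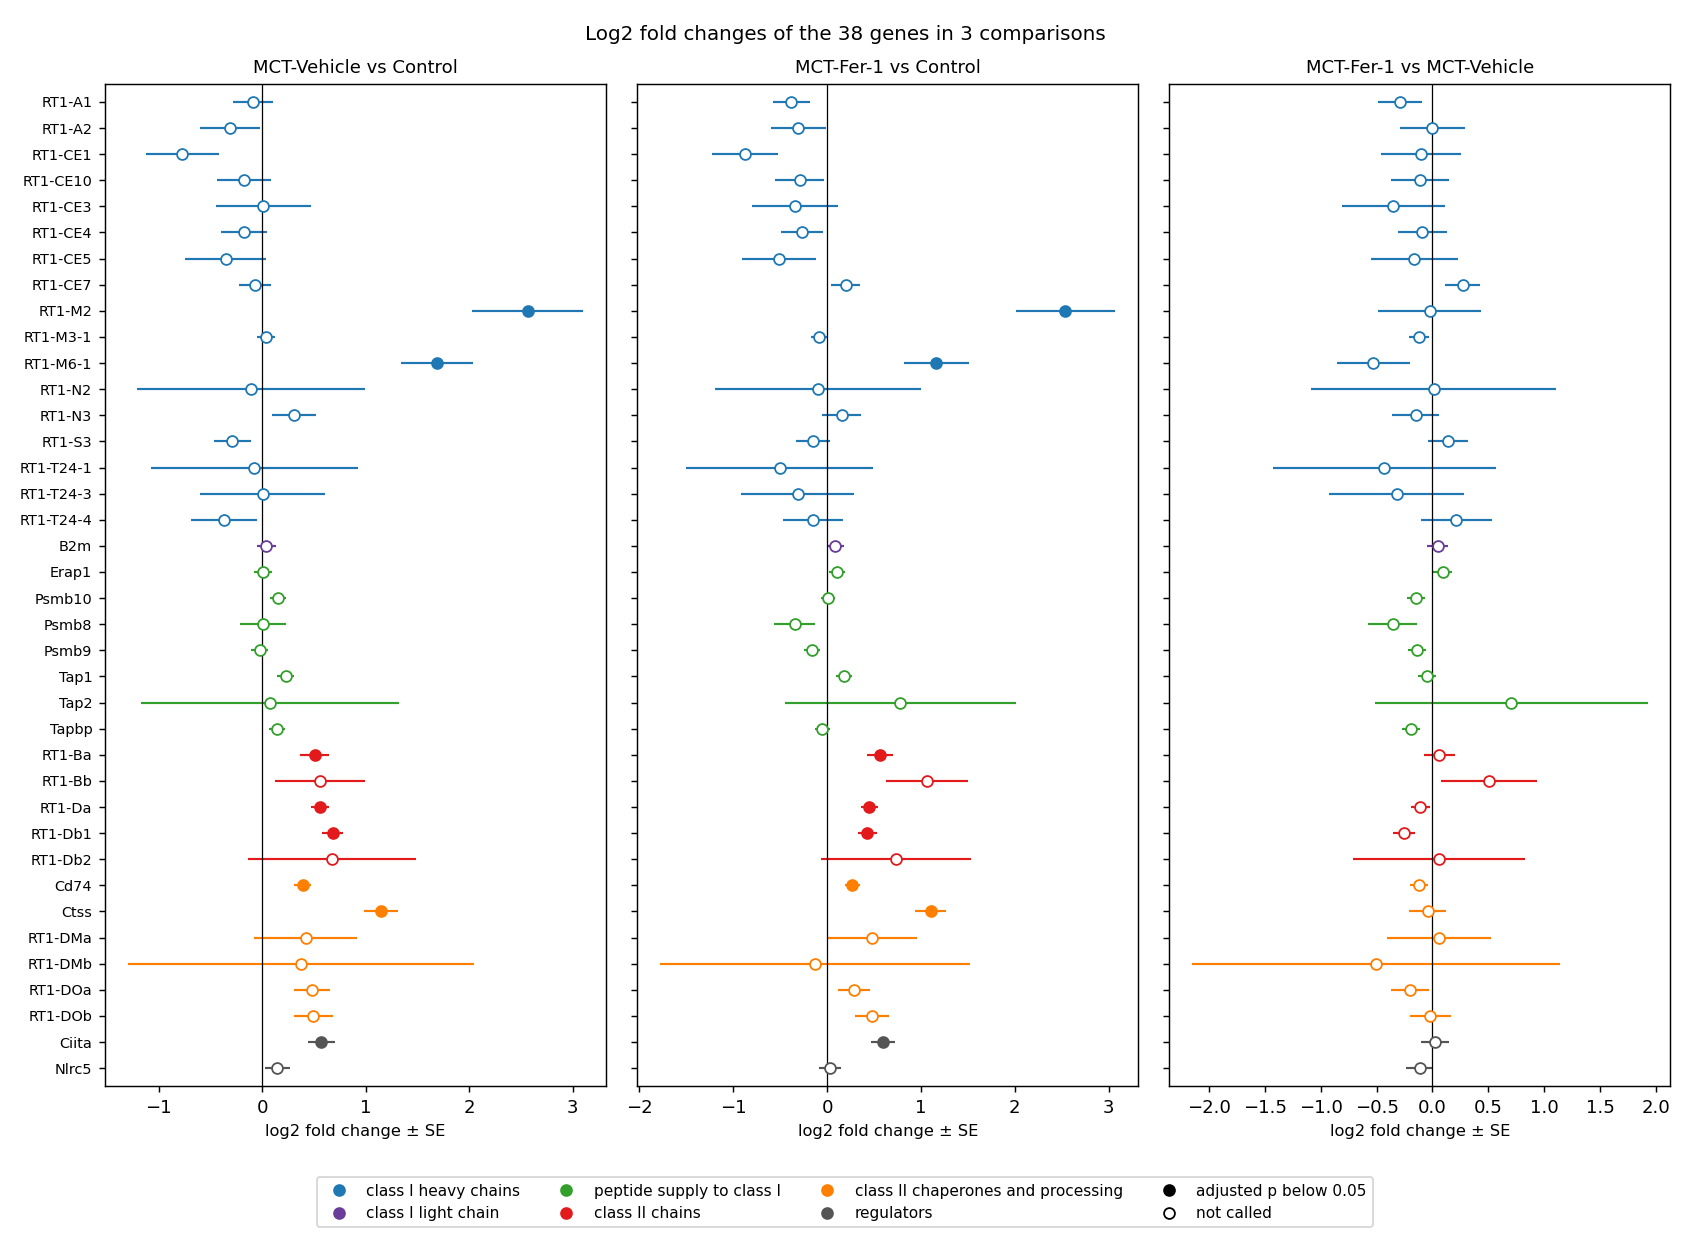
Log2 fold changes with SE of the 38 genes by role, for MCT-Vehicle against Control, MCT-Fer-1 against Control and MCT-Fer-1 against MCT-Vehicle from left to right, each panel on its own scale; filled points are called. Called genes, all to the right of 0, number 8 in each comparison with Control and 0 in MCT-Fer-1 against MCT-Vehicle, and the widest bars belong to genes with separate high and low libraries such as RT1-DMb and Tap2.

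The second comparison asked whether ferrostatin-1 altered these genes in monocrotaline rats. In MCT-Fer-1 against MCT-Vehicle, edgeR called 0 of the 38 genes and 0% of the 15257 tested. At an unadjusted p below 0.05, 0 of the 38 were higher, where 5.85% of all genes were, and 2 were lower, where 6.17% of all genes were. These 2 were RT1-Db1 (-0.25 ± 0.10, edgeR adjusted p = 0.343) and Tapbp (-0.19 ± 0.08, edgeR adjusted p = 0.358). Tapbp had 82.6, 71.4, 90.2 and 75.3 CPM in MCT-Fer-1, 91.9, 88.0, 87.9 and 97.4 CPM in MCT-Vehicle, and 76.9, 88.3, 86.7 and 78.8 CPM in Control. MCT-Fer-1 3 lay among the MCT-Vehicle values, and the other MCT-Fer-1 libraries lay below them. DESeq2 called 227 genes of the table, 0.634% higher and 0.865% lower, and 0 of the 38.

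Among the genes raised in MCT-Vehicle, the differences between the monocrotaline groups ran from -0.53 to 0.06 on the log2 scale, with the widest errors for RT1-M2 and RT1-M6-1. The log2 fold change in MCT-Fer-1 against MCT-Vehicle was -0.11 ± 0.09 for RT1-Da, 0.06 ± 0.14 for RT1-Ba and -0.12 ± 0.08 for Cd74. It was -0.04 ± 0.16 for Ctss, 0.02 ± 0.13 for Ciita, -0.03 ± 0.46 for RT1-M2 and -0.53 ± 0.33 for RT1-M6-1. The edgeR adjusted p of these 7 ran from 0.539 for RT1-M6-1 to 0.990 for RT1-M2, which does not show that the groups are alike. RT1-M3-1 was the 1 gene whose groups did not overlap. It had 34.0, 34.7, 36 and 35.4 CPM in MCT-Fer-1, against 42.1, 37.5, 36.5 and 36.1 CPM in MCT-Vehicle, with MCT-Fer-1 lower by 0.12 on the log2 scale (edgeR adjusted p = 0.624), where 2.99% of all genes lay wholly lower and 3.11% wholly higher. The median over the 38 genes was -0.10, against -0.01 over all genes tested.

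The third comparison set MCT-Fer-1 against Control, and it shares its Control libraries with the first. Class II genes again made up most of the genes that rose. Of the 38 genes, 8 rose and 0 fell, where 6.67% of all genes tested were called higher and 4.12% lower. The 8 were RT1-Da, RT1-Db1, RT1-Ba, Cd74, Ctss, Ciita, RT1-M2 and RT1-M6-1. The log2 fold change was 1.10 ± 0.17 in MCT-Fer-1 and 1.15 ± 0.17 in MCT-Vehicle for Ctss, and 0.59 ± 0.13 in MCT-Fer-1 and 0.57 ± 0.13 in MCT-Vehicle for Ciita. It was 0.45 ± 0.09 in MCT-Fer-1 and 0.56 ± 0.09 in MCT-Vehicle for RT1-Da, and 0.43 ± 0.10 in MCT-Fer-1 and 0.68 ± 0.10 in MCT-Vehicle for RT1-Db1. RT1-Ba had 0.57 ± 0.14 in MCT-Fer-1 and 0.51 ± 0.14 in MCT-Vehicle. For Cd74 the values were 0.27 ± 0.08 in MCT-Fer-1 and 0.39 ± 0.08 in MCT-Vehicle. RT1-M2 had 2.54 ± 0.53 in MCT-Fer-1 and 2.57 ± 0.54 in MCT-Vehicle, and RT1-M6-1 had 1.16 ± 0.34 in MCT-Fer-1 and 1.69 ± 0.35 in MCT-Vehicle. The edgeR adjusted p in MCT-Fer-1 against Control ran from 0.00127 for Ctss to 0.0482 for RT1-M6-1.

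Several of these calls depended on single libraries or settings. Cd74 (edgeR adjusted p = 0.0475) was called in 8 of 21 other settings and RT1-M6-1 in 6 of 21. RT1-Ba was lost without MCT-Fer-1 2 and without Control 1, 2 or 3 (adjusted p up to 0.0661), and RT1-Db1 without MCT-Fer-1 2 (adjusted p = 0.0538). Without MCT-Fer-1 2 only 4 of the 38 were called, and without Control 1, 2 or 3 only 5 were. Calls over the whole table fell as well, to 977 without MCT-Fer-1 2 and to 1243, 1124 and 1115 without Control 1, 2 and 3, against 1646 with all libraries. Without MCT-Vehicle 2 and Control 4, 7 rose and 1 fell, and calls over the whole table fell to 978. In that setting RT1-Bb rose (1.44, adjusted p = 0.0185) and RT1-CE5 fell (-0.76, adjusted p = 0.0312), while Cd74 and RT1-M6-1 lost their calls. Control 4, left out there, had 179 CPM of RT1-Bb, against 77.5 to 85.6 CPM in the other Control libraries. For RT1-CE5 it had 26.4 CPM, against 58.2 to 78.4 CPM. Neither gene was called when single libraries were left out in turn. In 8 of the 38 genes the 4 MCT-Fer-1 values lay above the 4 Control values, where 10.6% of all genes did so, and in 0 below, where 8.54% did so. DESeq2 also called 8 higher and 0 lower, where it called 8.14% of its genes higher and 6.16% lower.

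**Figure D4:**
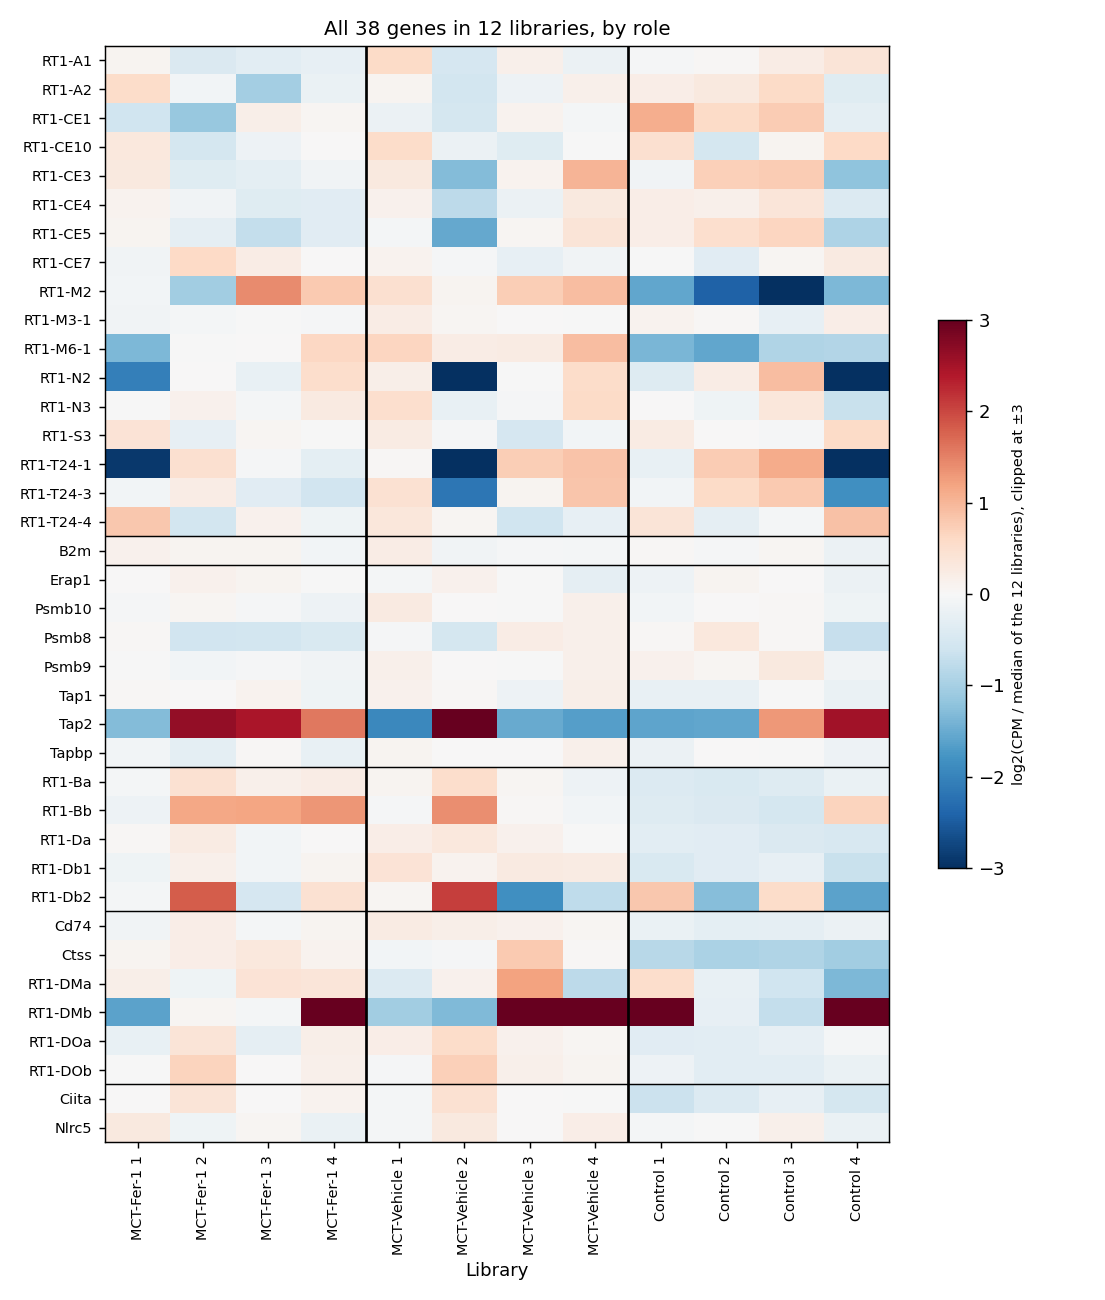
CPM of the 38 genes in each library, coloured by the log2 ratio to the gene's median over the 12 libraries and clipped at 3 either way, genes grouped by role and libraries in the order MCT-Fer-1, MCT-Vehicle, Control. RT1-Da, RT1-Db1, Cd74, Ctss and Ciita are lower in the 4 Control libraries than in the 4 MCT-Vehicle libraries, and RT1-N2 and RT1-T24-1 are low in MCT-Vehicle 2 and Control 4.

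Several RT1 genes separated libraries of 1 group from each other rather than the groups. In 6 of the 38 genes the highest library was at least 10 times the lowest, in 9 it was under 1.5 times, and 23 lay between. Of these 6, RT1-M2 owed its range to the difference between the monocrotaline groups and Control given above, and RT1-Db2 stood near the floor. RT1-N2, a class I gene, had 8.96, 37.5, 31.5 and 53.0 CPM in MCT-Fer-1, 41.8, 0.408, 36.3 and 53.6 CPM in MCT-Vehicle, and 28.3, 42.9, 70.3 and 0.651 CPM in Control. MCT-Vehicle 2 and Control 4, at 0.408 and 0.651 CPM, stood apart from the other 10 libraries, which began at 8.96 CPM. RT1-T24-1, another class I gene, had 1.55, 16.1, 11.2 and 9.35 CPM in MCT-Fer-1, 11.9, 0.589, 19.4 and 20.7 CPM in MCT-Vehicle, and 9.94, 19.6, 24.9 and 0.651 CPM in Control. The same libraries were lowest, followed by MCT-Fer-1 1. RT1-T24-3 had 57.3, 71.0, 48.6 and 41.0 CPM in MCT-Fer-1, 84.4, 13.6, 64.4 and 109 CPM in MCT-Vehicle, and 58.0, 90.4, 105 and 17 CPM in Control, again lowest in MCT-Vehicle 2 and Control 4. These libraries were the 2 lowest in 7 of the 17 class I heavy chain genes, the other 4 being RT1-CE3, RT1-CE4, RT1-CE5 and RT1-N3, and in B2m. They were not low in every RT1 gene: RT1-T24-4 and RT1-S3 were highest in Control 4, with 310.5 and 244 CPM. Both libraries were also the highest in heart muscle markers, whose part in this was not tested.

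RT1-Bb, Tap2 and Psmb8 shared a second library pattern. In RefSeq they lie on rat chromosome 20 in a run of RT1-Bb, RT1-DOb, Tap2, Psmb8, Tap1, Psmb9, RT1-DMb and RT1-DMa, and the other genes of the run did not share it. Tap2, the partner of Tap1 in the TAP transporter, had 0.603, 9.17, 8.01 and 4.42 CPM in MCT-Fer-1, 0.384, 12.1, 0.522 and 0.472 CPM in MCT-Vehicle, and 0.494, 0.498, 3.61 and 8.52 CPM in Control. In 6 libraries it was at 3.61 CPM or above, and in the other 6 it was at 0.603 CPM or below. The 5 libraries highest in RT1-Bb, namely MCT-Fer-1 2, 3 and 4, MCT-Vehicle 2 and Control 4, were among these 6, and the sixth was Control 3. The same 5 libraries were the lowest in Psmb8, at 29.3 to 34.5 CPM against 46.6 to 59.3 CPM in the other 7. RT1-DOb, between RT1-Bb and Tap2, was high in MCT-Fer-1 2 and MCT-Vehicle 2, while MCT-Fer-1 3 and 4 and Control 4, at 12.6, 13.8 and 10.8 CPM, lay among the other libraries. Tap1 and Psmb9, which lie between Psmb8 and RT1-DMb, varied by 1.34 and 1.32 times over all libraries. The 5 libraries high in RT1-DMb were another set, MCT-Fer-1 4, MCT-Vehicle 3 and 4, and Control 1 and 4. What sets these libraries apart was not tested.

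**Figure D5:**
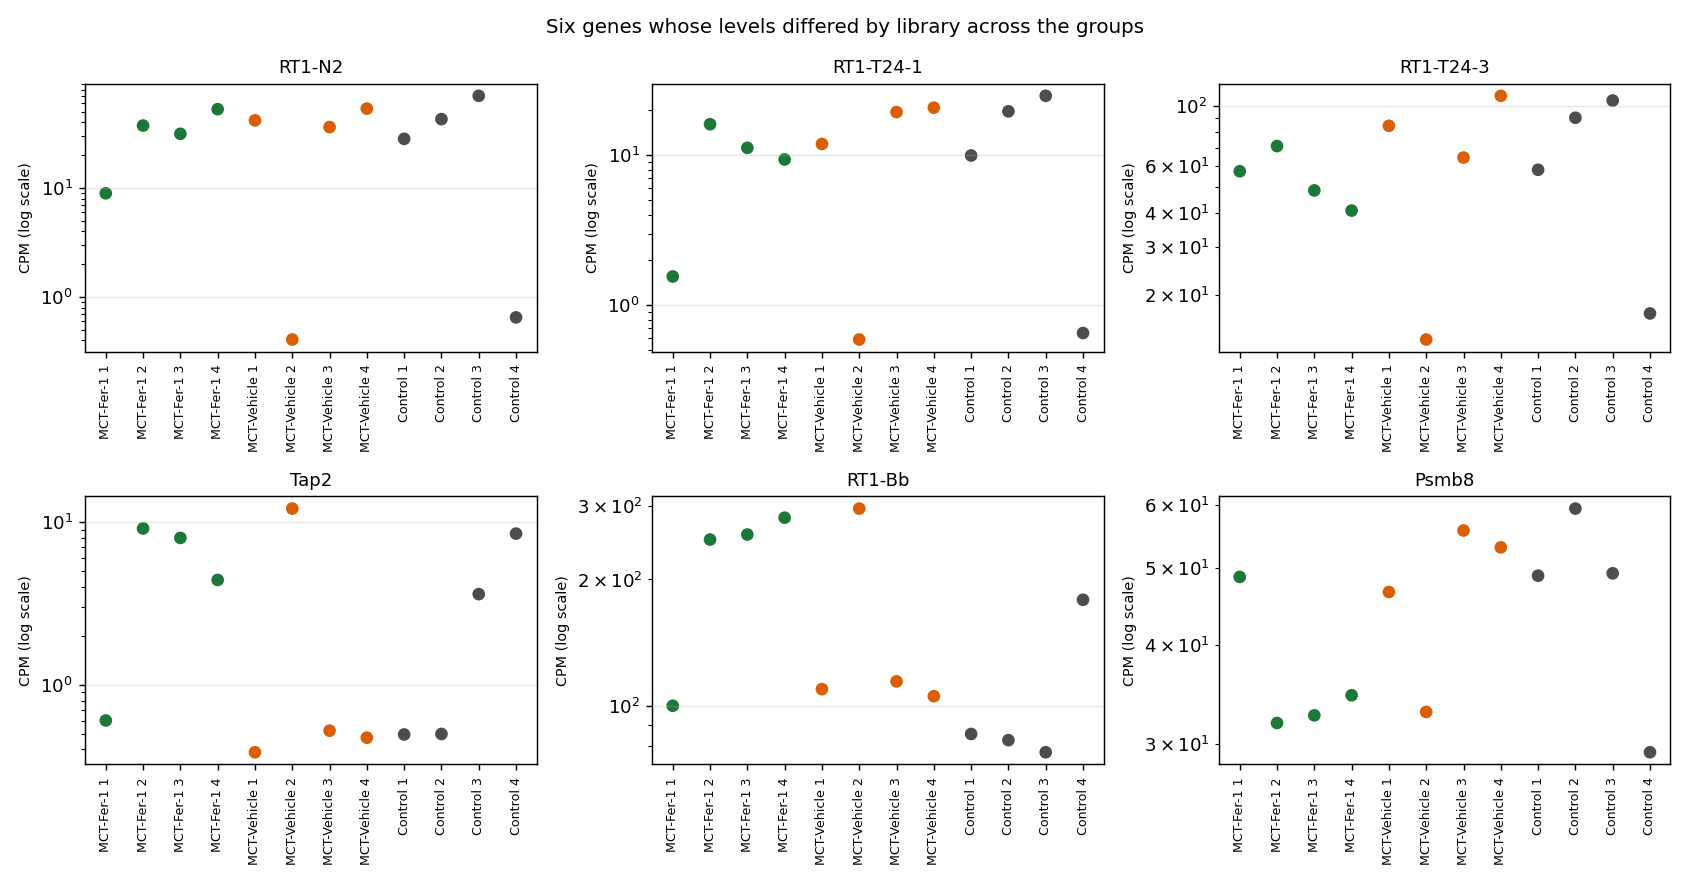
CPM per library (log axes) of 6 genes whose values separate libraries within groups, with libraries in the order MCT-Fer-1, MCT-Vehicle, Control. RT1-N2 and RT1-T24-1 are lowest in MCT-Vehicle 2 and Control 4, while RT1-Bb and Tap2 are high and Psmb8 low in MCT-Fer-1 2, 3 and 4, MCT-Vehicle 2 and Control 4.

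Other genes of the pathway were taken from lists with none of the 38 genes in them. In class II antigen processing, 7 of 13 genes rose in MCT-Vehicle against Control and 1 fell, and the median log2 fold change was 0.37. Over all genes tested in that comparison, 10.3% were called higher and 8.28% lower. The lysosomal protease gene Ctsd rose by 1.32 ± 0.21 on the log2 scale, Ctsb by 0.80 ± 0.15, Ctsz by 0.92 ± 0.16 and the thiol reductase gene Ifi30 by 0.83 ± 0.11, while the tetraspanin gene Cd9 fell (-0.41 ± 0.09). Their edgeR adjusted p ran from 4.01e-04 for Ifi30 to 0.00577 for Cd9. Ctsd, Ctsb, Ctsz and Ifi30 were each highest in MCT-Vehicle 3, and every MCT-Vehicle library lay above Control. MCT-Vehicle 3 was also highest in Ctss and in the macrophage marker sum (35800.5 CPM, mostly Lyz2), while C1qa, C1qb and C1qc were highest in MCT-Vehicle 4. The part of macrophages in these rises was not tested. In class I peptide loading and trafficking, 4 of 16 rose and 0 fell, namely the endoplasmic reticulum chaperone gene Calr (0.37 ± 0.09), the peptide loading complex gene Pdia3 (0.26 ± 0.07), the peptidase gene Thop1 (0.39 ± 0.12) and the translocon gene Sec61a1 (0.25 ± 0.07), edgeR adjusted p from 0.0108 to 0.0360. Of 17 constitutive proteasome subunits and activators, 1 rose, the activator gene Psme3 (0.34 ± 0.11, edgeR adjusted p = 0.0395).

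Of 12 further regulators of MHC genes, 1 rose and 1 fell in MCT-Vehicle against Control. Over all genes tested, 10.3% were called higher and 8.28% lower. Irf8, a transcription factor of dendritic cells and macrophages, rose by 0.85 ± 0.13 (edgeR adjusted p = 9.33e-04), and Rela, a subunit of NF-kappa B, fell (-0.20 ± 0.06, edgeR adjusted p = 0.0475). Of 15 genes of interferon gamma signalling, 4 rose and 0 fell: the chemokine genes Cxcl9 (1.15 ± 0.31), Cxcl10 (1.87 ± 0.31) and Cxcl11 (1.36 ± 0.38), and the receptor subunit gene Ifngr2 (0.29 ± 0.09), edgeR adjusted p from 0.00147 to 0.0409. Irf1, a transcription factor that interferon gamma induces, stood at -0.20 ± 0.10 in MCT-Vehicle against Control (edgeR adjusted p = 0.179). In MCT-Fer-1 against Control Irf1 fell (-0.50 ± 0.10, edgeR adjusted p = 0.00671), with its 4 MCT-Fer-1 values below the 4 Control values. Ifng itself was too low to be tested. Of 7 costimulation genes, 4 rose and 0 fell: Cd80 (2.69 ± 0.20) and Cd86 (0.95 ± 0.14), ligands that T cells need beside the MHC, Cd83 (0.73 ± 0.15) and Tnfsf9 (1.61 ± 0.34), edgeR adjusted p from 2.08e-05 to 0.00647. In MCT-Fer-1 against MCT-Vehicle 0 genes of these 6 lists were called. In MCT-Fer-1 against Control, 7 rose and 1 fell in class II processing, 1 rose and 1 fell among the regulators, 2 rose and 2 fell in interferon gamma signalling and 2 rose in costimulation, with 0 calls in the class I loading and proteasome lists. Over all genes tested in that comparison, 6.67% were called higher and 4.12% lower.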

How the data were processed

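RNA from whole rat lung was sequenced by the authors. The deposited table holds raw counts, per the file headers, for 32883 genes with Ensembl identifiers and symbols. Its further signal columns hold the authors' deposited mean count of each group and were not used. The sources used here do not give the aligner, counting tool, strand setting, annotation or build behind the counts. Reads of overlapping genes therefore cannot be told apart, and coordinates are those of RefSeq's GRCr8 promoter table.

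Groups and replicate numbers follow the titles. edgeR's filterByExpr kept 15257 genes with 99.9% of the counts, all 38 genes described among them. After TMM scaling, a robust quasi-likelihood model with 1 coefficient a group was fitted to the 12 libraries together (9 residual degrees of freedom). A gene counted as called where its Benjamini-Hochberg adjusted p over all genes tested was below 0.05. CPM use TMM-scaled library sizes. Library totals ran from 11601929 to 70627239 counts. R 4.3.3, edgeR 4.0.16, limma 3.58.1, DESeq2 1.42.0 and Python 3.11.15 were used. The test was also run on counts simulated from the fitted model, and the outcome is not reported here. No 2 libraries of a group agreed within sampling noise (chi-square at least 10.7 per degree of freedom).

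The genes, the 6 pathway lists, the 10 marker lists and the alternatives were chosen with earlier results of these data known. Values in every library are given for B2m, Cd74, Ciita, Nlrc5, Tap1, Tap2, Psmb8, Psmb9, Ctss, each gene called, the 2 of each role with the smallest p, and genes whose highest library is at least 10 times the lowest. Some others are given too, chosen after their values were seen. Pathway genes named were at most 4 a list with the smallest p among those called, and Irf1 and Ifng, while 1 more that the rule names is not reported here; Cd9 was added as the member that fell. Symbols of these lists without a match were not analysed here. Alternatives were other size factors and other filters on low counts, limma voom with quality weights or DESeq2 in place of edgeR, a fit of 2 groups at a time, a replicate block, and leaving out libraries.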

Additional observations from a re-analysis of the deposited data

Results flagged for a closer look

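Among 114 combinations of a gene and a group, 8 had 1 library far from the other 3, by a gap to the nearest library that exceeded Dixon's 95% limit as a share of the group's range. Chance gives this in about 1 in 20 groups. All 8 were high, and they fell on 7 genes. MCT-Fer-1 1 was high for Psmb8, at 48.7 CPM, and MCT-Fer-1 4 for RT1-DMb, at 27.1 CPM. MCT-Vehicle 2 was high for Tap2 at 12.1 CPM, RT1-Bb at 295 CPM and Ciita at 55.7 CPM. MCT-Vehicle 3 was high for Ctss, at 349 CPM. Among Control libraries, Control 4 was high for RT1-Bb at 179 CPM and Control 3 for Tap1 at 81.5 CPM. The causes were not tested.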

How the results depend on the processing

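Each result was recomputed under 21 alternatives. In MCT-Vehicle against Control, 7 to 9 of the 38 genes rose (7 to 9 when leaving out each library in turn) and 0 fell; DESeq2 called 9. In MCT-Fer-1 against MCT-Vehicle 0 rose and 0 fell in every alternative. In MCT-Fer-1 against Control, 4 to 8 rose when leaving out each library in turn, 6 without a filter on low counts, 6 in a fit of only the groups compared, and 6 with the replicate block; 0 fell, except 1 without MCT-Vehicle 2 and Control 4 together. No value reversed among those called. Over the whole table, MCT-Vehicle against Control had 1675 calls without MCT-Vehicle 2 and Control 4 together, against 2843, and 2021 to 2860 when leaving out each library in turn. MCT-Fer-1 against Control had 978 without these libraries, against 1646, 977 to 1714 when leaving out each library in turn, 2281 with DESeq2 and 2385 with limma voom. In MCT-Fer-1 against MCT-Vehicle the table had 0 calls, 227 with DESeq2, 1 in a fit of only these groups, and 0 to 41 when leaving out each library in turn, 41 of them without MCT-Vehicle 3. Same-numbered libraries of different groups did not deviate together (r from -0.0633 to 0.102 over 12 pairs), 4 of 12 libraries correlated best with a library of their own number, and 0 of 12 did so in both other groups, so the numbers were not taken to pair the libraries; the replicate block left 8, 0 and 6 calls among the 38 genes. Of 2390 single-gene results, 38 lost and 5 gained a call, the causes not tested. Depth limits genes near 3 counts, such as RT1-DMa, RT1-Db2 and RT1-M2 in Control.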

Other observations

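The 38 genes took 0.731 to 0.795% of the counts in MCT-Fer-1, 0.735 to 0.816% in MCT-Vehicle and 0.652 to 0.691% in Control, so that all 8 monocrotaline libraries lay above all 4 Control libraries. Of the marker lists for other lung cells, T and NK cells had 0 calls among 9 genes in each comparison. Endothelium had 2 that fell of 5 in MCT-Vehicle against Control and 1 in MCT-Fer-1 against Control, and red cells had 3 of 3 that fell in each. Over all genes tested, 10.3% were called higher and 8.28% lower in MCT-Vehicle against Control, and 6.67% and 4.12% in MCT-Fer-1 against Control. Of 3 fat and lymph node markers, Ccl21, a chemokine of lymphatic vessels, rose in both comparisons with Control, and 0 of 6 lung tissue and 0 of 6 heart muscle markers were called.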
